A study of Homo sapiens with 3 samples.

Results

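The serpin B cluster on the long arm of chromosome 18 holds 10 clade B serpin genes, and the binding of p63 and ZNF148 was described across it. Members were the peaks of either antibody whose summit lay in hg19 chromosome 18 from 60.95 to 61.75 Mb, a window of 0.8 Mb that runs from before SERPINB5 to beyond SERPINB8. Peaks of the cluster below means all peaks of this window, also those in the 194 kb before SERPINB5, the first serpin B gene. These were 6 of 21520 p63 peaks and 3 of 37883 ZNF148 peaks, 9 of 59403 in all. The window was set by gene position and not by the measured values. Members, genes and limits were, however, chosen with earlier results of these data known.

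Chromatin immunoprecipitation followed by sequencing (ChIP-seq) was carried out in FaDu, an established pharyngeal squamous carcinoma line, kept untreated in Eagle's minimum essential medium. The 3 samples were a ΔNp63α ChIP library, a ZNF148 ChIP library and input DNA with no antibody, 1 of each. DNA came from 3 independent ChIP assays per the labels, but each antibody has 1 peak list, so no value has a replicate error and no test was made. FaDu is a single line, no comparison of treatments or genotypes was made, and the read depth behind each peak is unknown.

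Serpins are a fold family best known as inhibitors of proteases, which they trap by a large change of their own shape. Clade B serpins lack a classical secretion signal and act mainly inside cells, and many of those on chromosome 18 are made in stratified epithelia such as epidermis and the lining of mouth and pharynx. ΔNp63α, the main p63 form of squamous epithelium, is a transcription factor of the p53 family and is needed for the basal layer of these tissues. ZNF148, also called ZBP-89, is a zinc finger protein that binds G-rich DNA.

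In the RefSeq gene table, which belongs to build GRCh38.p14 and was used for names and order only, the cluster opens with SERPINB5 (maspin, a serpin without protease inhibition that is often lost in carcinoma). SERPINB12 and SERPINB13 follow; SERPINB13, or headpin, inhibits cathepsins of the lysosome. SERPINB4 and SERPINB3 come next and encode the squamous cell carcinoma antigens, which inhibit serine and cysteine proteases respectively. SERPINB11 and SERPINB7 (megsin, mutated in a palmoplantar keratosis) lie beyond them. SERPINB2 (plasminogen activator inhibitor 2, an inhibitor of urokinase), SERPINB10 (known from blood cells) and SERPINB8 (an inhibitor of furin) close the row. The coding gene HMSD lies between SERPINB10 and SERPINB8. The coding genes before SERPINB5 are BCL2, KDSR and VPS4B. In hg19, the build of the peak lists, only the positions of SERPINB5 (61.144 to 61.172 Mb) and SERPINB8 (61.637 to 61.656 Mb) were at hand, to the nearest 0.001 Mb, so the other peaks are given by position without assignment to a gene.

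The promoter of SERPINB5 is shown first because the strongest peak of the cluster lay at the start of that gene. The sequence is the 250 bases before the transcription start on the plus strand, chr18:63476708-63476957 in GRCh38.p14, from RefSeq. Capitals mark matches to the p53-family half-site and the G-rich stretch.
SERPINB5: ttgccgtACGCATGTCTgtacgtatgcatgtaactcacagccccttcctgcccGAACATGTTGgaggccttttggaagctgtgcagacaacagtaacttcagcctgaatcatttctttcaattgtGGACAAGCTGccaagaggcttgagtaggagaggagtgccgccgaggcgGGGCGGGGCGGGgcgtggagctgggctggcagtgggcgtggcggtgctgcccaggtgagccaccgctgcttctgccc

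The half-site is the 10-base consensus of the p53 family, searched on both strands, with its 4 central bases kept and at most 1 mismatch elsewhere. SERPINB5 had 3 such matches, beginning 243, 197 and 125 bases before the start. The last is ggacaagctg and the middle one gaacatgttg. None of the 3 was a perfect half-site, and no perfect match was found in the promoters of the 8 serpin B genes with a RefSeq promoter sequence. With the mismatch allowed, SERPINB5, SERPINB12, SERPINB2 and SERPINB8 had a match, 4 of 8 genes with 11 promoters among them. In SERPINB2 the matches began 227, 160 and 146 bases before the start, in SERPINB12 83 and 13, and in SERPINB8 12. Having several matches was thus not particular to SERPINB5. Of all 35116 RefSeq promoter sequences, 28.0% had at least 1 match, and 5.57% had a perfect one. GGGNGGG, a G-rich motif of the kind ZNF148 is known to bind, occurred in SERPINB5 at 77 and 72 bases before the start, as overlapping matches within 1 run. SERPINB13 and SERPINB2 also held it, 3 of 8 genes, against 51.6% of all promoters. The motif GGGNGGG was searched on both strands and overlapped no half-site in SERPINB5. A match describes the letters only, and a gene counted here may have several promoters, which raises its chance of one. SERPINB10 and SERPINB11 had no promoter sequence at hand, so they were not searched and are named only.

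At SERPINB5, p63 had the strongest peak of the cluster. It ran from 61143865 to 61144133, a length of 269 bp, with a deposited fold enrichment (the ratio over local background at the summit, as the authors' peak caller gave it) of 33.5 and a −log10 q of 100.2. Its summit at 61144000 fell on the start of SERPINB5 as far as the position of the gene is known. Whether the interval of 269 bp holds the start itself cannot be told, since the start is known only to the nearest 0.001 Mb. The share of the interval taken up by the promoter sequence above was not worked out, since the builds differ.

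Within the p63 list the SERPINB5 peak ranked 4238 of 21520 by q value, so 19.7% of p63 peaks ranked higher. On chromosome 18 it ranked 50 of 343. It was the only one of the 6 p63 peaks in the cluster with a fold above the list median of 13.2. No ZNF148 summit lay closer to it than 24.2 kb, and the ZNF148 list held no peak within SERPINB5.

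**Figure D1:**
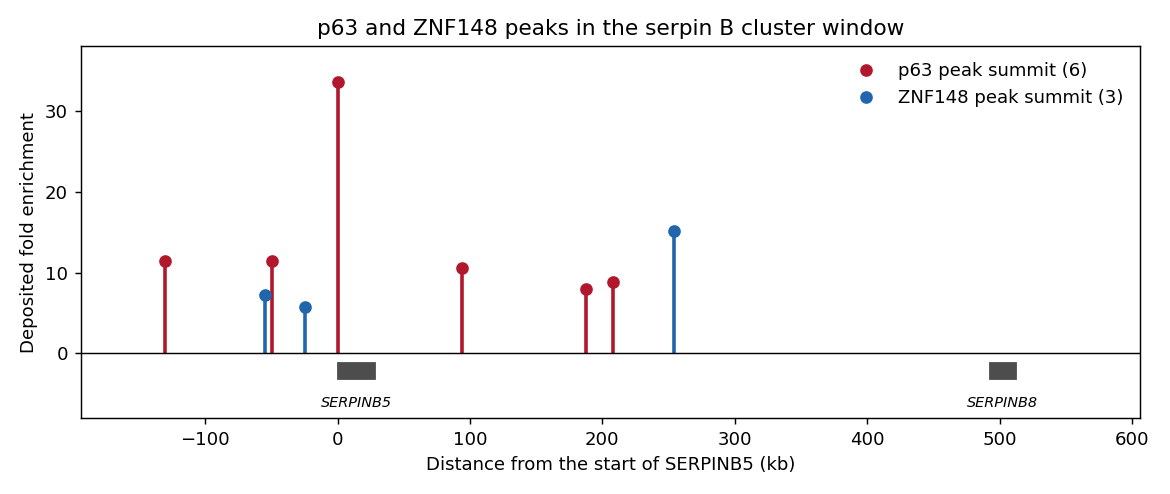
Peaks of p63 (6, red) and ZNF148 (3, blue) in the window, with the distance of each summit from the start of SERPINB5 in kb on the x axis and the deposited fold enrichment on the y axis. Grey bars are SERPINB5 and SERPINB8. The p63 peak at the start of SERPINB5 stands at 33.5, the other 5 p63 peaks lie between 7.95 and 11.5, and no peak of either list lies at or beyond SERPINB8.

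Before SERPINB5, 2 p63 and 2 ZNF148 peaks lay in 194 kb. The first p63 peak, at 61013340 to 61013577, had a fold of 11.5 and a −log10 q of 21.4, and its summit was 130.5 kb before SERPINB5. The second, at 61094682 to 61094934, had a fold of 11.4 and a −log10 q of 23.7, and its summit was 49.2 kb before the gene. They were alike in strength and ranked 225 and 211 of 343 on the chromosome, below its middle.

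The ZNF148 peaks of this stretch were weak. One, at 61089322 to 61089473, had a fold of 7.21 and a −log10 q of 8.10. The other, at 61119653 to 61119846, had a fold of 5.77 and a −log10 q of 5.45, and 90.9% of the ZNF148 list ranked higher. The first of them and the second p63 peak, both before SERPINB5, were the closest pair of the window, with summits 5.42 kb apart. The weaker ZNF148 peak, 24.2 kb before SERPINB5, was the nearest to the p63 peak at the gene's start.

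Between SERPINB5 and SERPINB8, a stretch of 465 kb that holds the other 8 serpin B genes, there were 3 p63 peaks and 1 ZNF148 peak. The first p63 peak, at 61237971 to 61238187, lay 94.1 kb beyond the start of SERPINB5 and had a fold of 10.6 (−log10 q 18.8). The next, at 61331899 to 61332074, was the weakest of the 6, with a fold of 7.95 and a −log10 q of 11.5. It had a neighbour 20.2 kb away, at 61352134 to 61352289, with a fold of 8.83 and a −log10 q of 13.9. All 3 ranked in the lower part of the p63 list, with 67.8 to 85.1% of its peaks above them.

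The ZNF148 peak between the genes was the strongest of that antibody in the cluster. It ran from 61398241 to 61398507 and had a fold of 15.2 and a −log10 q of 25.4, with 29.4% of the ZNF148 list above it. It was the last peak of either list in the window. Its nearest p63 summit was 46.1 kb away, so the strongest ZNF148 peak and the strongest p63 peak of the cluster stood apart, 254.4 kb from each other.

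The distal end of the cluster was without peaks. SERPINB8 itself, 19 kb long, and the 94 kb after it held no p63 and no ZNF148 peak. From the last p63 summit to the start of SERPINB8 there were 284.8 kb, and from the last ZNF148 summit 238.6 kb. Beyond the window the next ZNF148 summit came at 62240235 and the next p63 summit at 64382806. The distance from 1 p63 summit to the next was therefore 3031 kb here, against a median of 68.6 kb over the genome, and 19 of 21497 distances between neighbouring p63 summits were as long. For ZNF148 it was 841.9 kb against a median of 24.7 kb, with 226 of 37860 as long. These numbers include the distances across centromeres and other unmapped stretches. Of the p63 distance, 397.8 kb lay inside the window and 2633 kb beyond it. Of the ZNF148 distance, 351.6 kb lay inside and 490.2 kb beyond, so neither distance describes the cluster alone.

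The positions between SERPINB5 and SERPINB8 include a pair of near-identical genes, SERPINB4 and SERPINB3, and reads from such copies may not map to 1 place. The 250 bases before the start of each are shown to make this visible, both from RefSeq GRCh38.p14 on the minus strand, with capitals at the bases that differ. The first is chr18:63644257-63644506 and the second chr18:63661894-63662143.
SERPINB4: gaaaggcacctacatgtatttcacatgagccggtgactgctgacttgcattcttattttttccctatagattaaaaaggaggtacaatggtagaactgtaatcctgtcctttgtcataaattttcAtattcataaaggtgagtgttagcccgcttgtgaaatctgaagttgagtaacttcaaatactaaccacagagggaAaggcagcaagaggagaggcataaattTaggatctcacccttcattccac
SERPINB3: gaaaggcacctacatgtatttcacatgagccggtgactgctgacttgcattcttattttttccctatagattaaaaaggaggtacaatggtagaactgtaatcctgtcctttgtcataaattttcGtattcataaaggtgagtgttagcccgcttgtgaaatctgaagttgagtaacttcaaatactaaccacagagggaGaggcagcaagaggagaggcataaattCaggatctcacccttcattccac

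These promoters were the same at 247 of 250 bases, or 98.8%. Counted from 1 at the 5′ end, with the SERPINB4 base first, the differences were A126G, A201G and T228C. Among the 8 serpin B genes with a promoter sequence, no other pair of promoters exceeded 33.6% when compared base by base without gaps. The treatment of reads that map to several places is not stated in the labels, so where no peak is listed at such copies, unbound DNA and lost reads cannot be told apart.

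None of the 9 peaks was shared. Of the 6 p63 peaks, 0 overlapped a ZNF148 peak by 1 bp or more (exact Clopper-Pearson 95% interval 0 to 45.9%), against 21.2% of all p63 peaks. Of the 3 ZNF148 peaks, 0 overlapped a p63 peak (0 to 70.8%), against 12.1% of all ZNF148 peaks. The intervals cover counting error only and treat the peaks as independent. Even at 0, the lowest count possible, they include both background shares. So few peaks therefore cannot show whether sharing in the cluster was lower than in the rest of the genome. Summits within 25 bp of a summit of the other list were found for 0 of the 6 p63 peaks, against 13.5% of that list, and for 0 of the 3 ZNF148 peaks, against 7.67%. On chromosome 18 as a whole, 75 of 343 p63 peaks were shared, or 21.9%.

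The nearest shared site on the chromosome lay 376.0 kb before the window. Its p63 peak, at 60573811 to 60574141, had a fold of 62.7, and its ZNF148 peak, at 60573761 to 60574209, had a fold of 52.7. The summits were 7 bp apart, and both folds were above every fold in the cluster. Inside the cluster the distances from a p63 summit to the nearest ZNF148 summit ran from 5.42 to 118.3 kb with a median of 56.3 kb, while the median was 24.2 kb on chromosome 18 and 11.7 kb over all p63 peaks. From a ZNF148 summit to the nearest p63 summit the median in the cluster was 24.2 kb, below the 35.5 kb of chromosome 18 and above the 20.7 kb over all ZNF148 peaks.

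**Figure D2:**
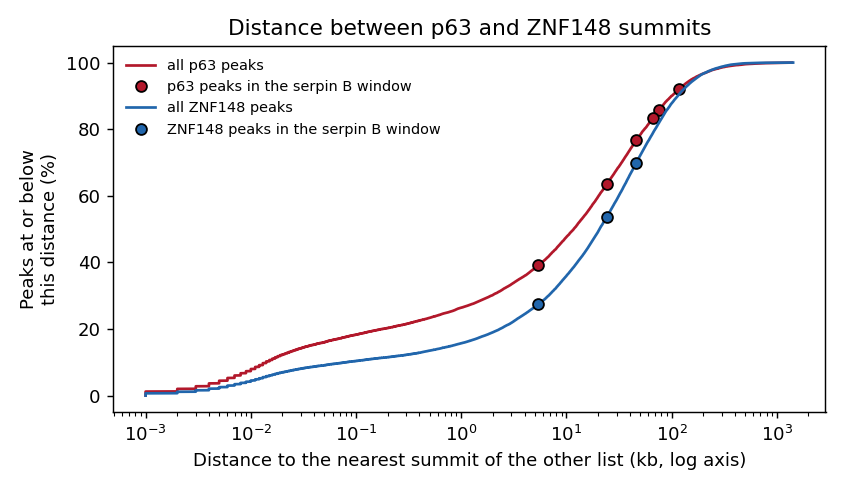
Share of peaks, in percent, whose nearest summit of the other list lies at or below the distance on the x axis (kb, log scale; distances of 0 are drawn at the left end), for all p63 peaks (red line) and all ZNF148 peaks (blue line). Filled points are the peaks of the serpin B window, which lie between 5.42 and 118.3 kb, to the right of the distances at which peaks overlap.

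Most peaks of the cluster, 5 of 6 for p63 and 2 of 3 for ZNF148, had a fold below the median of their list. The 6 p63 peaks had a median fold of 11.0 (range 7.95 to 33.5), against 13.4 on chromosome 18 and 13.2 over all p63 peaks. The 3 ZNF148 peaks had a median of 7.21 (range 5.77 to 15.2), against 9.38 on the chromosome and 9.83 overall. From the start of SERPINB5 to the end of SERPINB8 only the ZNF148 peak with a fold of 15.2 was left, so the place of ZNF148 below the list median rests on the 2 peaks before SERPINB5. A fold of 10 or more was reached by 4 of the 6 p63 peaks, while 65.1% of all p63 peaks reached it, and by 1 of the 3 ZNF148 peaks, while 49.6% of all ZNF148 peaks did. These shares lie near those of the whole lists for so few peaks. The p63 peaks were 156 to 269 bp long and the ZNF148 peaks 152 to 267 bp, and in each list the longest in the cluster was the strongest.

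**Figure D3:**
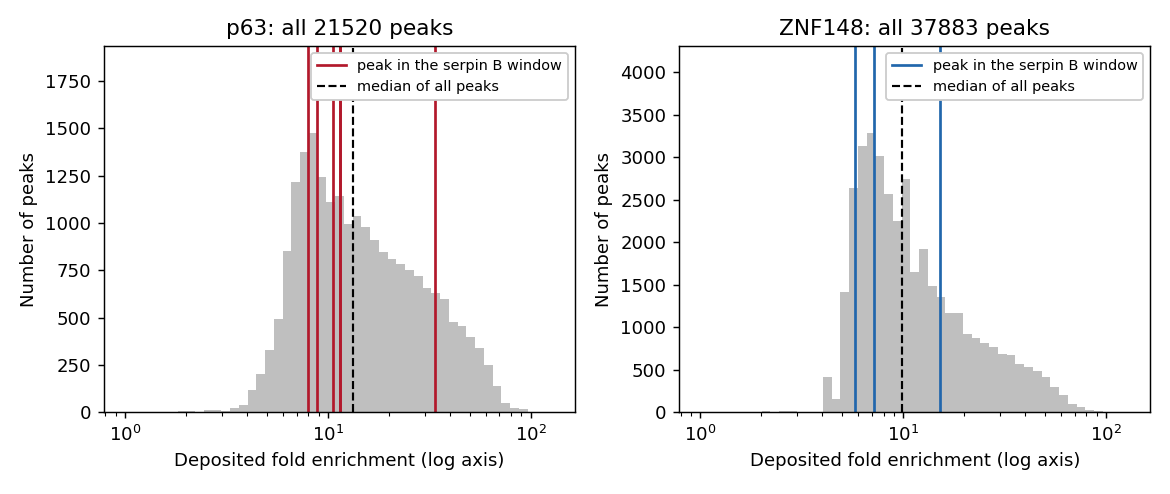
Number of peaks by deposited fold enrichment (log axis) for all 21520 p63 peaks (left) and all 37883 ZNF148 peaks (right). Coloured lines are the peaks of the serpin B window and dashed lines the medians of all peaks, 13.2 and 9.83; 1 p63 and 1 ZNF148 peak of the window lie above the median of their list.

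Many of the deposited folds, though not most, fall on steps, which limits how finely those peaks can be told apart by fold. The ranks given above are by q value. The commonest p63 values were whole multiples of 0.441, and 5 of the 6 p63 folds in the cluster were such multiples to within 1% of a step. On that scale the weaker peaks stood at 18, 20, 24 and 26 steps and the SERPINB5 peak at 76. The step for ZNF148 was 0.721, and its 3 peaks stood at 8, 10 and 21 steps. The remaining p63 peak, with its summit at 61094816, stood at 25.9 steps and so within 1 step of the peak at 26. Over the whole lists, 32.6% of p63 and 45.6% of ZNF148 folds were whole multiples at this tolerance.

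By number, p63 peaks were denser in the window than on chromosome 18 as a whole and ZNF148 peaks were sparser. The window held 7.50 p63 peaks per Mb, against 4.40 on chromosome 18 and 7.30 over all chromosomes analysed, where the window counts in full and a chromosome from its first to its last summit. It held 3.75 ZNF148 peaks per Mb, against 5.18 and 12.9. Among 3542 windows of the same length that held any peak, the median was 5 p63 and 7 ZNF148 peaks. Of these windows, 46.7% had 6 or more p63 peaks and 25.3% had 3 or fewer ZNF148 peaks. In 24.4% of them p63 peaks outnumbered ZNF148 peaks, as they did here by 6 to 3. Of the 335 windows with exactly 6 p63 peaks, 44 had 3 or fewer ZNF148 peaks, and in 19 of those 44 no p63 peak was shared. The make-up of the serpin B window thus lay to the p63 side of the median but recurred elsewhere. These counts carry no test, and copy number, which can change how many peaks are called in a region, was not examined.

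**Figure D4:**
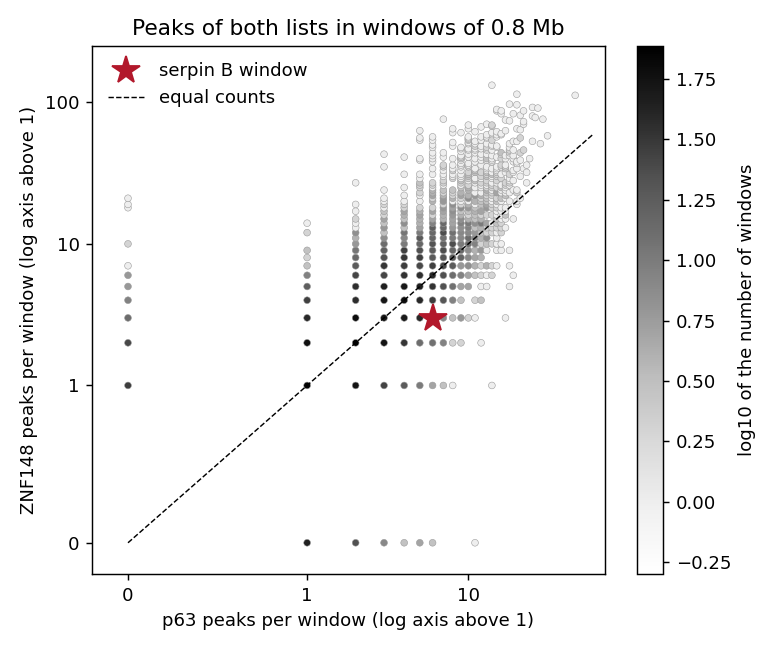
Number of p63 peaks (x axis) and ZNF148 peaks (y axis) in windows of 0.8 Mb over all chromosomes analysed, both axes logarithmic above 1, with the shade of a point giving log10 of the number of windows at that place. The star is the serpin B window, at 6 p63 and 3 ZNF148 peaks, below the dashed line of equal counts.

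The edges of the window set which peaks were counted. The nearest p63 peak outside it, at 60905437 to 60905613, lay 44.5 kb before the window with a fold of 8.39, close in strength to the weaker p63 peaks inside. The first p63 peak inside had a fold of 11.5. The nearest ZNF148 peak before the window was 241.8 kb away with a fold of 6.49, and the nearest one after it was 490.2 kb away with a fold of 11.3. With the window narrowed to the stretch from the start of SERPINB5 to the end of SERPINB8, 4 p63 peaks and 1 ZNF148 peak remained. The SERPINB5 peak was among the 4 because its summit equals the start as rounded to 0.001 Mb. A start slightly further on would leave 3.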

How the data were processed

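Per the submitters' processing notes, MACS2 2.2.6, Bowtie2 2.3.4.3 and SAMtools 1.7 were used on build hg19, with MultiQC 1.12 and FastQC 0.11.9; their settings, the peak-calling control, read filters and depth are not given in the sources used here. Both deposited lists lack a header and follow the narrowPeak layout. For each peak the authors deposited a fold enrichment (a ratio over local background), −log10 p and −log10 q. The deposited score repeats −log10 q and was left aside. Among the peaks kept, −log10 q began at 3.16 (p63) and 3.02 (ZNF148), and sites below that are not listed.

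Peaks on chromosomes 1 to 22 and X were kept, and rows of an identical interval were merged, keeping the summit of highest −log10 q. Members, genes and limits were chosen with earlier results of these data known. The naming rule was every peak in the window. Positions are 1-based hg19. Overlaps were checked with bedtools 2.31.1 and on simulated lists. Windows of 0.8 Mb were laid side by side from the start of each chromosome. Densities use the full 0.8 Mb for the window and the span between first and last summit for chromosomes. Python 3.11.15, numpy 2.4.6, pandas 2.3.3, scipy 1.17.1 and matplotlib 3.10.9 were used.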

Additional observations from a re-analysis of the deposited data

How the results depend on the processing

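Each of the 7 values on the cluster was recomputed with a −log10 q of at least 10, a fold of at least 10, every row counted as a peak, the narrower window and lists of equal length, and the shares also with other overlap and summit limits, which gave 40 values. Equal lists were applied to counts and medians only after the data had been seen. The number of ZNF148 peaks fell from 3 to 1 with a −log10 q of at least 10, with a fold of at least 10, in the narrower window and with lists of equal length, and the 1 left was the peak at 61398241 to 61398507. Under the same settings the median ZNF148 fold moved from 7.21 to 15.2, the fold of that peak. The number of p63 peaks was 4 or 6 and the median p63 fold ran from 9.71 to 11.5, within 1.5 times the reported values. In the narrower window the 4 p63 peaks include the SERPINB5 peak, whose summit equals the start as rounded to 0.001 Mb. With a start slightly further on, 3 p63 peaks would remain, a count beyond that limit, so the p63 values of that window are not settled. All 20 recomputed shares were 0, which says nothing of stability: no summits of different lists lay closer than 5.42 kb, and removing peaks or asking for more overlap cannot make a shared one. With the grid of windows shifted, 24.6% of 3556 windows had more p63 than ZNF148 peaks. No paired analysis was possible because each antibody has 1 library, and none could be left out.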
